A study of Homo sapiens with 6 samples.

Results

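Metallothioneins are small, cysteine-rich proteins that bind zinc and copper and, when these are present, toxic metals such as cadmium. Their genes stand in a cluster on chromosome 16 and are switched on by the zinc-sensing transcription factor MTF1, which binds short metal response elements in their promoters. SLC30A1 (also known as ZnT1) carries zinc out of the cell across the plasma membrane and is another well known target of MTF1, so the set is often read as a gauge of free zinc and metal exposure. The genes described here were the 8 rows of the deposited table, among 60605 in all, that carry the symbols MT1E, MT1F, MT1G, MT1M, MT1X, MT2A, MTF1 and SLC30A1. They were picked by symbol, and no threshold on a measured value was applied. The set and the gene lists below were, however, chosen with earlier results of these data known. Shares of a list set beside those of all genes are therefore descriptions.

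The RNA came from MDA-MB-231 cells, a human triple-negative breast cancer cell line with a mesenchymal character. The cells carried either a control hairpin (shControl, 3 libraries) or a hairpin against PUS1 (shPUS1, 3 libraries), and PUS1 is an enzyme that turns uridine into pseudouridine in RNA. The study's methods name the vector pLKO.1 for the hairpins against PUS1. The control cells received a control hairpin lentivirus whose vector is not named. Infected cells were kept in puromycin, according to the methods, and no metal treatment is named for either group. The labels name the replicates biological ones but neither the hairpin sequenced nor whether replicates were selected separately, so the p-values measure the spread between these libraries. The headings of the shPUS1 columns carry a further number of unstated meaning, and their last number was read as the replicate.

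Library totals ran from 14241505 to 19625998 estimated read counts. The libraries of shPUS1 correlated with each other at a Pearson's r of 0.987 to 0.991 across the log2 CPM (counts scaled to a library total of 1000000) of all genes tested, which are not independent replicates. The library shControl replicate 2 stood apart from its own group, with r of 0.951 and 0.952, against 0.981 between replicates 1 and 3. Values without it are therefore given beside the results that it moves. The PUS1 transcript was at 14.5, 27.5 and 12.1 CPM in shControl replicates 1, 2 and 3 and at 6.57, 5.47 and 5.37 CPM in those of shPUS1 (log2 fold change -1.64, edgeR adjusted p = 0.0462, or -1.20 and 0.00311 without shControl replicate 2). PUS1 stayed below 0 but passed no adjusted p of 0.05 in 9 of 16 alternatives, among them the replicate block (0.0969), the fits without shControl replicate 1 (0.0905) or shPUS1 replicates 1, 2 and 3 (0.208, 0.253 and 0.192) and limma (0.0512 to 0.141). The line's markers VIM, CD44, AXL, CAV1, EGFR and KRT18 were all detected, at 19.3 FPKM or more in every library (FPKM are counts scaled by library total and by exonic length). Their summed level was 911 to 1124 FPKM in shControl and 700 to 735 FPKM in shPUS1, and 0 of the 6 passed in edgeR. AXL, VIM and CD44 were lower in every shPUS1 library than in any shControl library, as held for 17.3% of all genes. Without shControl replicate 2, AXL (log2 fold change -0.48, edgeR adjusted p = 0.014) and VIM (-0.40, 0.0305) passed, in a fit that called 8.79% of all genes as lower. CD44 (-0.22), CAV1 (-0.0028), KRT18 (0.04) and EGFR (0.25) did not pass there. The part of this difference in the results was not tested. Of 7 luminal and hormone receptor genes ESR1, PGR and FOXA1 reached at most 0.04 FPKM and CDH1 0.18 FPKM, while ERBB2 was at 4.93 to 6.91, EPCAM at 2.21 to 3.12 and GATA3 at 1.55 to 2.16 FPKM. The 7 summed to 9.76 to 12.0 FPKM in shControl and 9.56 to 10.1 FPKM in shPUS1. Of 6 genes of other cell types the leukocyte gene PTPRC reached at most 0.02 FPKM, and PECAM1 and VWF at most 0.46 FPKM. CD68 was lower in every shPUS1 library, at 37.3 to 42.7 FPKM in shControl and 27.8 to 31.7 FPKM in shPUS1. Its log2 fold change was -0.39 (edgeR adjusted p = 0.1), or -0.42 (0.0235) without shControl replicate 2. The fibroblast and pericyte genes COL1A1 (0.73 to 3.53 FPKM) and PDGFRB (1.32 to 8.29 FPKM) were higher in every shPUS1 library, with log2 fold changes of 1.11 and 1.00 (edgeR adjusted p = 0.11 and 0.195), or 0.77 and 0.59 (0.0123 and 0.0163) without shControl replicate 2. Of all genes 17.3% were wholly lower and 18.8% wholly higher in shPUS1. The fit without shControl replicate 2 called 8.79% of all genes as lower and 9.8% as higher. The 6 genes of other cell types summed to 39.5 to 51.2 FPKM in shControl and 40.1 to 42.4 FPKM in shPUS1, and their part in the results was not tested.

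No gene of the set passed an adjusted p of 0.05 in edgeR's quasi-likelihood test, and 1, MT1E, did in DESeq2. SE is the standard error of a log2 fold change, which is given as shPUS1 relative to shControl throughout. Of the 8 genes, 6 had enough counts to be tested and 2, MT1G and MT1M, had 0 counts in every library. Over all 14748 genes tested 2.58% passed in edgeR, 1.74% higher and 0.841% lower in shPUS1, and 1.37% did with an added minimum of 1 in log2 fold change. An unadjusted p under 0.05 was reached by 2 of the 6, MT1E and SLC30A1, both with lower values in shPUS1, where 25.5% of all genes did, 12.8% with lower values. For these same 2 genes the shControl and shPUS1 values did not overlap, as held for 36.1% of all genes, of which shPUS1 was lower for 17.3% and higher for 18.8% of all genes. The median log2 fold change of the 6 was -0.12, beside -0.03 over all genes tested. In these bulk libraries a smaller share of expressing cells and less RNA per cell cannot be told apart.

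**Figure D1:**
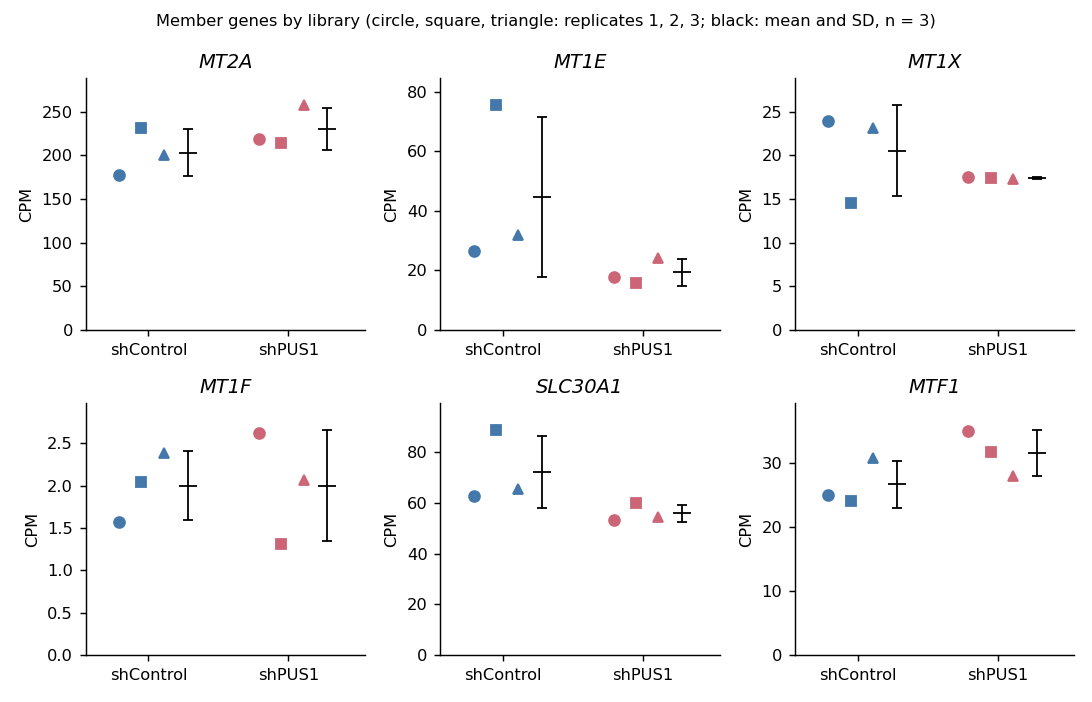
CPM (y axis, from 0) of the 6 tested genes in each of the 3 shControl and 3 shPUS1 libraries, with the mean and SD of each group in black. MT1E and SLC30A1 show shPUS1 libraries below all shControl libraries and a high shControl replicate 2, while the groups overlap for the other genes.

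MT2A, the main metallothionein of most human tissues, supplied most of the family's RNA. The gene (ENSG00000125148, chromosome 16, 56608584 to 56609497, plus strand) was at 198, 246 and 226 FPKM in shControl replicates 1, 2 and 3. In shPUS1 it was at 236, 233 and 279 FPKM. It ranked between 73 and 121 among all rows of the table in every library, so it was an abundant transcript in both groups, and the groups overlapped. In CPM it was at 203 ± 27.1 in shControl and 230 ± 23.9 in shPUS1 (SD, n = 3 each). MT2A had a log2 fold change of 0.18 (SE 0.14, 95% interval -0.15 to 0.51, edgeR adjusted p = 0.453). That interval spans from 0.9-fold to 1.42-fold of the shControl level.

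MT1E (ENSG00000169715, chromosome 16, 56625475 to 56627112, plus strand), a metallothionein of the MT1 subgroup that is expressed in some breast cancer lines and silent in others, was the member with the largest difference. It was at 26.5, 75.5 and 31.8 CPM in shControl replicates 1, 2 and 3, from 405, 1440 and 467 counts. In shPUS1 it was at 17.8, 15.9 and 24.3 CPM, from 320, 290 and 412 counts. The 2 groups did not overlap, with all shPUS1 values the lower ones, and shControl replicate 2 was more than 2 times as high as any other. The exact two-sided permutation test gave p = 0.1, the smallest that 3 libraries against 3 allow. For MT1E edgeR estimated -1.21 (SE 0.39, 95% interval -2.12 to -0.30, adjusted p = 0.117). The estimate moved to -0.60 (adjusted p = 0.051) with shControl replicate 2 left out. DESeq2, the tool of the study's methods, gave -1.21 with an adjusted p of 0.0178 on all 6 libraries, where it called 12.4% of genes, 5.36% as lower. With no filter on low counts edgeR gave -1.20 and 0.0151, where 4.75% of genes were called, 1.95% as lower and 2.8% as higher. Over all alternatives the adjusted p of MT1E ran from 0.0151 to 0.367.

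MT1X (ENSG00000187193, chromosome 16, 56682470 to 56684196, plus strand), another metal-inducible member, was at 23.9, 14.5 and 23.2 CPM in shControl replicates 1, 2 and 3. The shPUS1 libraries were nearly alike, at 17.5, 17.4 and 17.4 CPM. They lay between shControl replicate 2, the lowest of all, and the other two shControl libraries, so MT1X and MT1E were shifted in opposite directions in shControl replicate 2. MT1X had a log2 fold change of -0.23 (SE 0.21, 95% interval -0.72 to 0.25, edgeR adjusted p = 0.502). Without shControl replicate 2 it was -0.44 with an adjusted p of 0.0212, in a fit that called 18.6% of all genes, 8.79% as lower and 9.8% as higher. Over all alternatives the adjusted p of MT1X ran from 0.0212 to 0.784. Of its transcripts' stretches of 100 bases in GENCODE release 29, 11.3% also occur in an unnamed locus that starts at the same base. That locus had 0 counts in these libraries.

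MT1F (ENSG00000198417, chromosome 16, 56657731 to 56660698, plus strand) was barely expressed. It had 24, 39 and 35 counts in shControl replicates 1, 2 and 3 and 47, 24 and 35 counts in shPUS1, which is 1.57 to 2.38 CPM and 1.31 to 2.62 CPM. The groups overlapped, and the log2 fold change lay between -0.82 and 0.82 at 95% confidence (edgeR adjusted p = 0.998). That interval spans from 0.566-fold to 1.76-fold of the shControl level, so these counts and replicates are compatible with a difference of such a size.

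MT1G (ENSG00000125144, chromosome 16, 56666730 to 56668065, minus strand) and MT1M (ENSG00000205364, chromosome 16, 56632659 to 56633981, plus strand) had no count in any of the 6 libraries. A count of 0 allows up to 3 counts per library, or 0.157 to 0.204 CPM, and this covers counting error only. No fold is given for either. The table holds 15 further metallothionein rows, pseudogenes included, and 12 of them were also at 0 in every library, among them MT1H, MT3 and MT4. MT1B had 1 count in shPUS1 replicate 3, and the pseudogene MT2P1 had 1 to 10 counts per library. MT1A was the other metallothionein with enough counts to test, at 20, 9 and 13 counts in shControl and 25, 28 and 23 in shPUS1 replicates 1, 2 and 3. Its values were higher in every shPUS1 library, with a log2 fold change of 0.70 (95% interval -0.28 to 1.67, edgeR adjusted p = 0.333). Without shControl replicate 2 it was 0.37, with an adjusted p of 0.495.

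Per length, the order of the members was the same in both groups except for a pair whose values overlapped. MT2A was highest, 5.30 times the mean FPKM of MT1E in shControl and 13.7 times in shPUS1. MT1E came next, at 42.2 ± 24.0 FPKM in shControl and 18.2 ± 4.14 FPKM in shPUS1 (SD, n = 3 each), above MT1X and SLC30A1 in every library of its group. MT1X and SLC30A1 did not differ beyond their spread in either group, with 12.0 ± 3.34 and 12.3 ± 2.02 FPKM in shControl. MTF1 lay below them at 3.37 ± 0.545 FPKM, and MT1F below MTF1 at 1.09 ± 0.235 FPKM. The genes at the ends of this scale, MT2A and the silent MT1G, MT1M and MT1H, all belong to the cluster on chromosome 16.

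**Figure D2:**
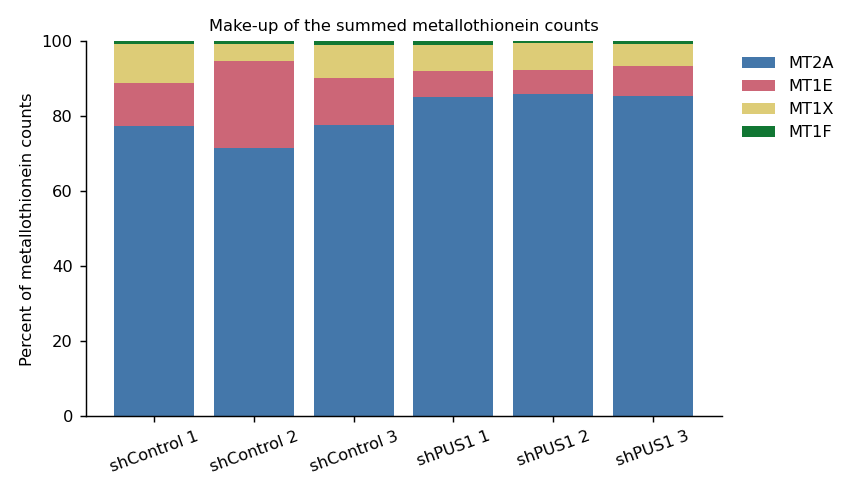
Percent of the summed counts of the 6 metallothioneins (y axis, 0 to 100) taken by MT2A, MT1E, MT1X and MT1F in each library, with MT1G and MT1M at 0. MT2A takes 71.5% to 77.8% of the counts in shControl and 85.2% to 86.1% in shPUS1, and MT1E takes the largest share in shControl replicate 2.

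Reads of near-identical copies can be assigned to the wrong gene, which leaves the sum of the family unchanged. No stretch of 100 bases was shared between any 2 members, and the counts of all 8 were whole numbers. The 6 metallothioneins summed to 229, 323 and 258 CPM in shControl replicates 1, 2 and 3. They summed to 257, 248 and 301 CPM in shPUS1. The groups overlapped widely, and the log2 fold change of the sum was -0.01 (SE 0.16, 95% interval -0.38 to 0.36, edgeR adjusted p = 0.977). The interval reaches from 0.771-fold to 1.28-fold. The mean total was 270 ± 48.2 CPM in shControl and 269 ± 28.4 in shPUS1 (SD, n = 3 each), so the means differed by less than the spread between replicates.

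The make-up of that total does not depend on how libraries are scaled. It was chosen after the values had been seen, so it is given as a description with no test. MT1E took 11.6%, 23.3% and 12.3% of the summed counts in shControl replicates 1, 2 and 3. In shPUS1 it took 6.94%, 6.39% and 8.07%. The lowest shControl share was above all shares of shPUS1. MT2A took 75.6% ± 3.48 of the counts in shControl against 85.6% ± 0.444 in shPUS1 (SD, n = 3 each), also without overlap, which mirrors the share of MT1E since the shares sum to 100%. Per length, MT1E was at 0.184 ± 0.0865 of MT2A in shControl and 0.0724 ± 0.00891 in shPUS1, and without shControl replicate 2 the shControl mean was 0.134.

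SLC30A1 (ENSG00000170385, chromosome 1, 211571568 to 211579161, minus strand), the zinc exporter, was at 62.7, 88.6 and 65.6 CPM in shControl replicates 1, 2 and 3. In shPUS1 it was at 53.3, 59.8 and 54.4 CPM. The groups did not overlap, by a margin of a few CPM, and as for MT1E the highest value was that of shControl replicate 2. SLC30A1 had a log2 fold change of -0.37 (SE 0.16, unadjusted p = 0.0486, edgeR adjusted p = 0.194). Without shControl replicate 2 it was -0.21, with an adjusted p of 0.165, and the alternatives gave adjusted p of 0.142 to 0.453.

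MTF1 (ENSG00000188786, chromosome 1, 37809574 to 37859592, minus strand), the factor that activates the metallothionein genes and SLC30A1 when zinc rises, was at 25.1, 24.1 and 30.9 CPM in shControl. In shPUS1 it was at 35.1, 31.7 and 28.0 CPM. The groups overlapped through shControl replicate 3 and shPUS1 replicate 3, and the log2 fold change was 0.25 (SE 0.16, 95% interval -0.12 to 0.61, edgeR adjusted p = 0.361). MTF1 is regulated largely as a protein, by zinc binding and entry into the nucleus, which these counts do not measure.

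**Figure D3:**
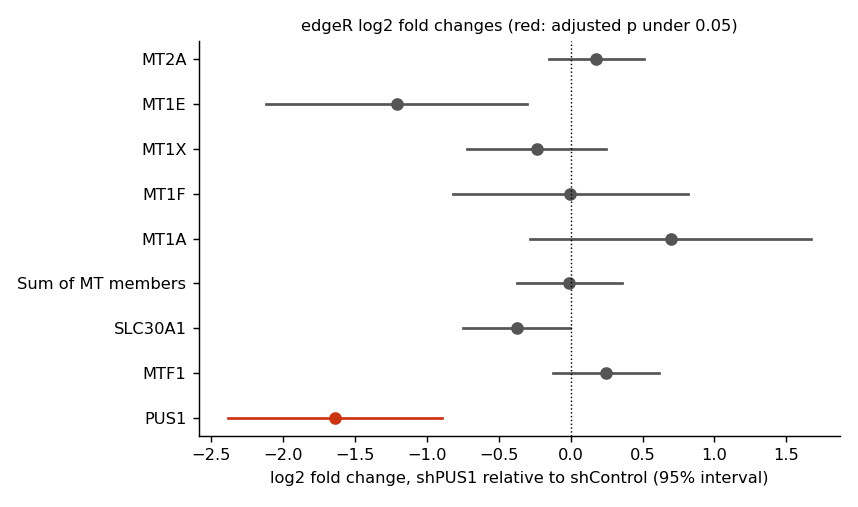
Log2 fold changes of shPUS1 relative to shControl from edgeR (x axis) with 95% intervals, for the tested genes, MT1A, the sum of the 6 metallothioneins and PUS1. PUS1, at -1.64, is the single gene drawn in red for an adjusted p under 0.05. The intervals of MT1E, SLC30A1 and PUS1 lie below 0 and the others cross it.

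The promoters were read for the sites that MTF1 binds. The core of the metal response element, searched as TGCACNC or TGCGCNC on both strands, was counted from 250 bases before to 50 after each gene's start in RefSeq's GRCh38.p14 sequences. Of 35116 promoters 29.6% held at least 1 match, 8.6% at least 2, 2.3% at least 3, 0.601% at least 4 and 0.162% at least 5. The sequence table held 4 of the 8 members, MT2A, MT1X, SLC30A1 and MTF1, all with the start that the deposited table gives. MT2A had 8 matches, MT1X 4, SLC30A1 2 and MTF1 0. MT1H and MT4, with 0 counts in every library, had 8 and 3, and MT1B had 3. Those of MT4 lie 209, 196 and 90 bases before its start. For SLC30A1 and MT1B the first bases after the start used here were not found in a GENCODE transcript. They were found for MT2A, MT1X, MT1H, MT4 and MTF1. The windows below are shown because MT2A, MT1X, MT1B and MT1H each hold a match at 53 or 54 bases before the start, while their RNA ranged from abundant to none. Capitals mark the core on the gene's strand, all on the plus strand.
MT2A, chr16:56608521-56608545: cggggctttTGCACTCgtcccggct
MT1X, chr16:56682408-56682432: cggggcctcTGCGCCCggccctctt
MT1B, chr16:56651824-56651848: cggggcctcTGCACCCcaccacctc
MT1H, chr16:56669752-56669776: cagggtctcTGCACCCggctccctc
The pair further upstream in MT2A, at 153 and 139 bases before the start, overlaps in its windows. Such close spacing was also seen in MT1H, silent in these libraries, with cores at 160, 144 and 126 bases before its start. The 2 matches of SLC30A1 lie on the opposite strand, 1 on each side of the start, and capitals there mark the complement of the core as read on the gene's minus strand.
MT2A, chr16:56608422-56608446: agagccgggTGCGCCCggcccagtg
MT2A, chr16:56608436-56608460: ccggcccagTGCGCGCggccgggtg
SLC30A1, chr1:211579195-211579219: gggggttccGAGTGCAaagcaaagt
SLC30A1, chr1:211579122-211579146: gaccgggccGAGTGCAgctgccgtg
These matches are a description of the letters, and binding of MTF1 was not measured.

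SLC30A1 belongs to the zinc transporters, of which the SLC30 family lowers cytosolic zinc and the SLC39 family raises it. Of 24 such genes 17 were tested, 1 rose, 0 fell and 16 did not pass an adjusted p of 0.05 in edgeR, a share of 5.88% beside 2.58% of all genes. Their median log2 fold change was -0.06. Wholly higher in shPUS1 were 4 of the 17, beside 18.8% of all genes, and wholly lower were 5, beside 17.3%. The gene that rose was SLC39A14 (ENSG00000104635, chromosome 8, 22367278 to 22434129), a plasma membrane importer of zinc, manganese and iron. It was at 138, 127 and 148 CPM in shControl replicates 1, 2 and 3. In shPUS1 it was at 284, 302 and 255 CPM, so that all shPUS1 libraries were far above all shControl libraries. SLC39A14 had a log2 fold change of 1.02 (SE 0.12, edgeR adjusted p = 0.0214). The adjusted p was 0.00126 and 0.0445 without shControl replicates 2 and 3, but 0.0681 without shControl replicate 1 and 0.16, 0.18 and 0.12 without shPUS1 replicates 1, 2 and 3. The log2 fold change stayed between 0.96 and 1.09 in these fits. At the other end was SLC39A4, an importer best known from the gut, with a log2 fold change of -1.18 (adjusted p = 0.161) and 20.6 CPM in shControl replicate 2 beside 4.78 to 6.68 in all other libraries, and without that library it had -0.40 (adjusted p = 0.127). SLC39A10, an importer gene that MTF1 is known to repress, had 0.23 (adjusted p = 0.477), or 0.03 (0.845) without shControl replicate 2. Without that library 4 of 18 tested zinc transporters passed, SLC39A14, SLC30A4 and SLC39A13 higher and SLC39A11 lower, in the fit that called 18.6% of all genes.

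**Figure D4:**
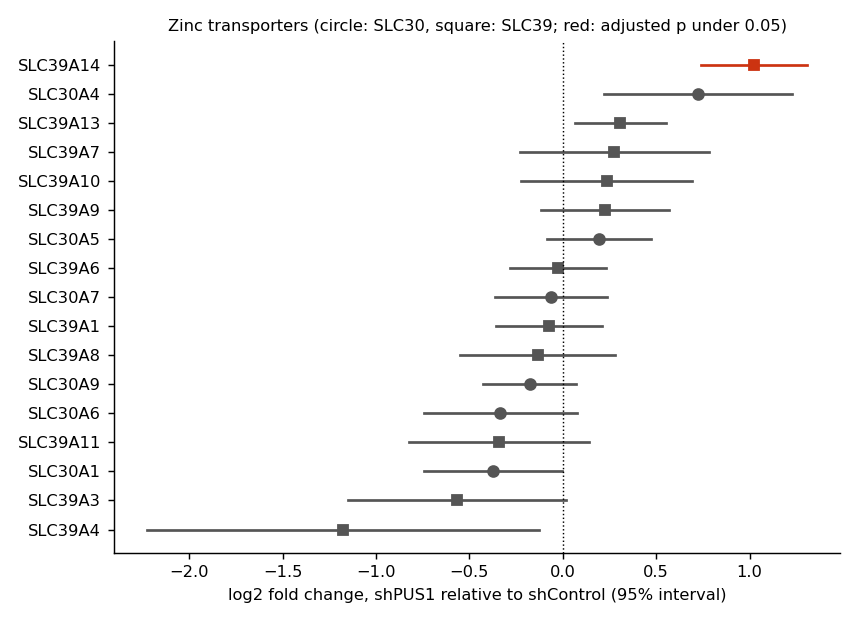
Log2 fold changes of shPUS1 relative to shControl from edgeR (x axis) with 95% intervals for the 17 tested zinc transporter genes, ordered by value. SLC39A14, at 1.02, is the single gene past an adjusted p of 0.05, and SLC30A1, at -0.37, lies among the lower ones.

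Metallothioneins also bind copper, and iron-handling genes respond to some of the same metals. Of 11 copper genes, all tested, 1 rose and 0 fell, a share of 9.09% beside 2.58% of all genes. The one that rose was SLC31A2 (ENSG00000136867, chromosome 9, 113150976 to 113164140), a copper transporter of endosomes and lysosomes, at 7.49 ± 2.24 CPM in shControl and 18.5 ± 1.84 in shPUS1 (SD, n = 3 each). It had a log2 fold change of 1.31 (SE 0.24, edgeR adjusted p = 0.0418). It stayed past the threshold without shControl replicate 2 (adjusted p = 0.0056) and was lost without shControl replicates 1 and 3 (0.0681 and 0.0593) and without shPUS1 replicates 1, 2 and 3 (0.196, 0.244 and 0.18). Of the 11, 6 had a log2 fold change above 0 and 5 below 0. SCO1 had -0.37 (edgeR adjusted p = 0.152), with all shPUS1 values the lower ones, and COMMD1 had -0.69 (0.342). Without shControl replicate 2 they had -0.27 (0.0899) and -0.04 (0.923). The plasma membrane copper importer SLC31A1 had 0.69 and the copper exporter ATP7A 0.64, with edgeR adjusted p of 0.154 and 0.178. SLC31A1 was, without shControl replicate 2, at 0.42 and passed (0.0229), and ATP7A was at 0.41 (0.121). Of 10 iron genes 0 passed the edgeR threshold, beside 2.58% of all genes. A log2 fold change above 0 was seen for 9, with a median of 0.15 beside -0.03 over all genes. Wholly higher in shPUS1 were 4, beside 18.8% of all genes, and wholly lower were 0, beside 17.3%. An unadjusted p under 0.05 was reached by 1, beside 25.5% of all genes. That 1 was the ferritin heavy chain FTH1, at 1009 ± 146 CPM in shControl and 1402 ± 71.1 in shPUS1 (SD, n = 3 each, log2 fold change 0.47, edgeR adjusted p = 0.0928, DESeq2 adjusted p = 0.0324, where DESeq2 had 7.05% of genes higher). FTH1 had, without shControl replicate 2, 0.36 and passed in edgeR (adjusted p = 0.0281).

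Heat shock and thiol genes are induced by cadmium and other metals beside the metallothioneins. Of 12 such genes, all tested, 1 rose and 0 fell, a share of 8.33% beside 2.58% of all genes, with a median log2 fold change of 0.19. The log2 fold change was above 0 for 6 of the 12 and below 0 for 6. An unadjusted p under 0.05 was reached by 6 of the 12, beside 25.5% of all genes. Wholly higher in shPUS1 were 6, beside 18.8% of all genes, and wholly lower was 1, SRXN1, beside 17.3%. HSPH1 (ENSG00000120694, chromosome 13, 31134973 to 31162388), a large heat shock protein that helps other chaperones exchange nucleotide, was at 178 ± 31.3 CPM in shControl and 426 ± 37.7 in shPUS1 (SD, n = 3 each). HSPH1 had a log2 fold change of 1.26 (SE 0.16, edgeR adjusted p = 0.022). HMOX1, the heme oxygenase that cadmium induces strongly, had -0.06 (adjusted p = 0.839) and the inducible chaperone genes HSPA1A and HSPA1B had 0.57 and 0.53 (adjusted p = 0.17 and 0.164). HSPA1A was, without shControl replicate 2, at 0.33 and passed (0.0405), and HSPA1B was at 0.32 (0.07). Among the thiol genes SLC7A11, the cystine importer, had 0.64 (edgeR adjusted p = 0.0887, DESeq2 0.0214, and 0.0464 without shControl replicate 2). GCLM, a subunit of the enzyme that starts glutathione synthesis, had 0.41 (edgeR adjusted p = 0.0922, DESeq2 0.0475, and 0.00991 without shControl replicate 2). GCLC had 0.40 (edgeR adjusted p = 0.109, and 0.0272 without that library). SRXN1, NQO1 and TXNRD1 had -0.14, -0.15 and -0.02, and HSPA8 and DNAJB1 had -0.29 and -0.05. Their edgeR adjusted p was 0.408 or more. Without shControl replicate 2, NQO1 was at 0.39 and passed (0.0251), with HSPA8 at -0.02 (0.92) and DNAJB1 at 0.12 (0.45). HSPA1A and HSPA1B are near-identical copies whose reads cannot be assigned with certainty.

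Glucocorticoids are a further inducer of MT2A and MT1X. Of 8 genes, 7 that they induce and their receptor NR3C1, 7 had enough counts, 1 rose and 0 fell, a share of 14.3% beside 2.58% of all genes. SGK1 (ENSG00000118515, chromosome 6, 134169248 to 134318112), a kinase that also responds to salt and serum, was at 16.2 ± 0.835 CPM in shControl and 37.8 ± 2.01 in shPUS1 (SD, n = 3 each, log2 fold change 1.22, edgeR adjusted p = 0.0147). Of the 7 tested, 6 had a log2 fold change above 0 and 1, FKBP5, below 0, with a median of 0.29. FKBP5 had -0.30 and TSC22D3 0.31, with edgeR adjusted p of 0.433 and 0.546. PER1, DUSP1, KLF9 and NR3C1 had 0.58, 0.29, 0.23 and 0.14, with edgeR adjusted p of 0.487 or more. Without shControl replicate 2, FKBP5 was at 0.03 (0.861) and TSC22D3 at 0.01 (0.967). PER1 and NR3C1 were then at 0.12 and 0.11, DUSP1 and KLF9 at -0.21 and -0.29, and none of these passed. For SGK1 and HSPH1 the adjusted p was over 0.05 without shControl replicate 1 (0.0618 and 0.083), and without shPUS1 replicates 1, 2 and 3 it ran from 0.12 to 0.184. Without shControl replicate 2 it was 0.000605 and 0.000866, and without shControl replicate 3 it was 0.0445 for both.

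The metallothionein genes lie next to each other, and their neighbours on chromosome 16 were read for a difference shared by the region. Between 55565073 and 57682470, within 1000000 bases of the cluster's first and last gene starts, 68 other genes are listed and 23 were tested. In edgeR and in DESeq2 0 of them passed, and in edgeR 6 had an unadjusted p under 0.05, beside 25.5% of all genes. Their log2 fold changes ran from -0.60 to 1.30, with 13 above and 10 below 0 and a median of 0.06. Without shControl replicate 2, 4 of 25 tested neighbours passed, or 16%, beside 18.6% of all genes in that fit, with 2 higher (9.8% of all genes) and 2 lower (8.79%) in shPUS1.

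The genes whose log2 CPM over the 6 libraries was most like that of the summed metallothioneins were NDUFS8, RAB1B, PHLDA2, ANXA11 and FKBP2, among 11029 genes with a mean of at least 5 CPM. Pearson's r was 0.994, 0.992, 0.982, 0.974 and 0.971, as a description over 6 libraries that share their depth and group. Like the sum, each was highest in shControl replicate 2 and second highest in shPUS1 replicate 3. None of these 5 had a log2 fold change beyond 0.07 in size, with adjusted p of 0.864 or more from edgeR. The shared high libraries and small fold changes largely follow from choosing genes by likeness to the sum, which had -0.01. They are therefore no separate result.

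**Figure D5:**
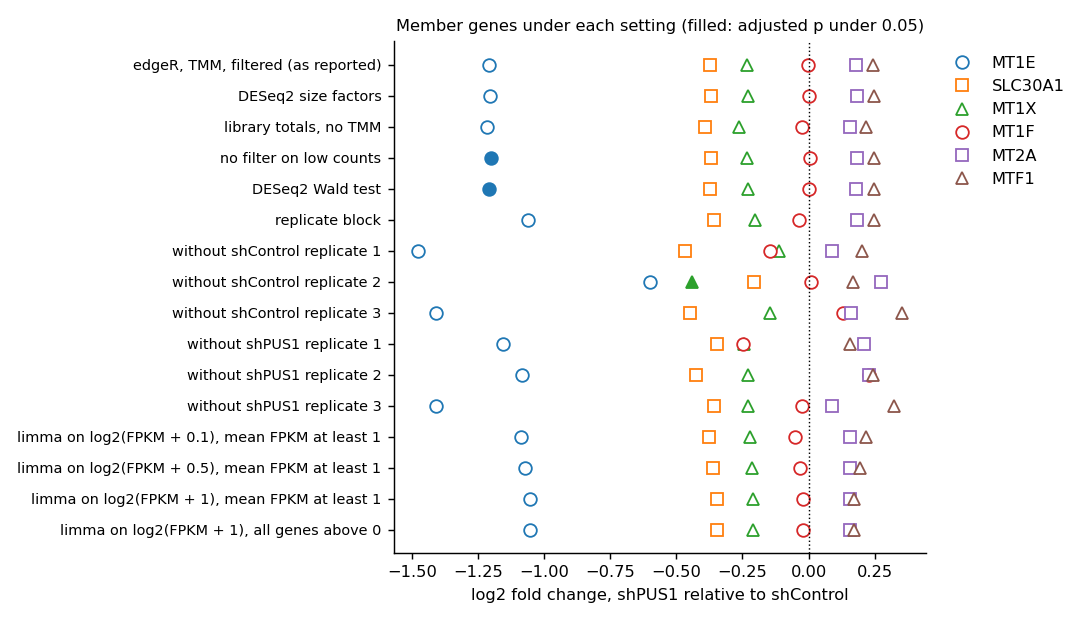
Log2 fold changes of shPUS1 relative to shControl (x axis) for the 6 tested members under each processing setting (y axis), with filled points for an adjusted p under 0.05. MT1E is filled under DESeq2 and with no filter on low counts, and MT1X without shControl replicate 2. MT1E moves from -1.21 to -0.60 when shControl replicate 2 is left out.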

How the data were processed

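Poly(A) RNA libraries of 3 shControl and 3 shPUS1 cultures were read on an Illumina NovaSeq in the study. The deposited table gives estimated counts per gene, which the authors made with HISAT2 and HTSeq 0.6.1, per the submitters' processing notes, and did not normalize. Of the counts above 0, 29.8% to 31.8% per library were not whole numbers, and the reason was not tested. Also given are FPKM that the authors derived from the counts by exonic length and library total. The build, annotation and strandedness are not given in the sources used here; all 8 members overlap their GENCODE release 29 (GRCh38) entry. Estimated counts were rounded and, after a filterByExpr filter and TMM scaling, compared in edgeR 4.0.16 (quasi-likelihood, Benjamini-Hochberg over all genes tested, R 4.3.3). Standard errors are the log2 fold change over the root of F. CPM divide by the totals of the tested genes times TMM factors (14677512 to 19075874), and intervals cover the fitted spread. DESeq2 1.42.0, limma 3.58.1 on log2(FPKM + 0.1, 0.5 or 1), other scalings, no filter, a replicate block, a fold threshold and each library left out were alternatives. Named were all members, PUS1, other metallothioneins with 10 or more counts in a library, up to 4 genes past the threshold per list and the 5 most alike in pattern; further list genes were named after their values were seen. The members and lists were chosen with earlier results of these data known. Protein sequences were not used here.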

Additional observations from a re-analysis of the deposited data

How the results depend on the processing

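Replicate numbers were not taken as pairs, as residuals of libraries with the same number correlated at -0.05, -0.03 and -0.19 across genes. With the replicate block 18 genes were higher and 0 lower in shPUS1 (256 and 124 without it), the summed metallothioneins had a log2 fold change of 0.00141, and the block left 0 genes past the threshold among zinc transporters, copper and iron genes, and stress and glucocorticoid genes. Of all genes, 164 were higher with library totals; 756 were higher and 528 lower with no low-count filter, 973 and 739 with DESeq2, 131 and 71 with the fold threshold, and 30 and 5 with limma on all genes above 0; 134 were higher with limma at a pseudocount of 0.1. Leaving out 1 library gave 0 (without shPUS1 replicate 3) to 1483 higher and 0 to 1330 lower genes (the highest without shControl replicate 2), with 11 or fewer higher and 0 lower without shControl replicate 1 or without any 1 shPUS1 replicate. Members past the threshold numbered 0, but 1 with no filter and 1 with DESeq2 (MT1E), and 0 to 1 with a library left out. Zinc transporters numbered 1, with 2 under DESeq2, 0 with limma on all genes and 0 to 4 with a library left out. Copper and iron genes numbered 1, with 2 under DESeq2, 0 with limma on all genes and 0 to 3 with a library left out. Stress and glucocorticoid genes numbered 2, with 4 under DESeq2, 0 with limma on all genes and 0 to 7 with a library left out. Neighbours of the cluster numbered 0, with 1 under no filter and 0 to 4 with a library left out. The sum of metallothioneins was -0.12 to 0.13 on the log2 scale with a library left out, and 0.00559, 0.00557 and 0.00555 with limma at the pseudocounts 0.1, 0.5 and 1, and 0.00555 over all genes. MT1F turned from -0.00165 to 0.00265 with DESeq2 size factors, 0.00434 with no filter and 0.00149 with DESeq2, and ran from -0.25 to 0.23 with a library left out. The causes were not tested. In CPM the order of MT1E, SLC30A1, MT1X and MTF1 changed to 3, 2, 5 and 4, since CPM ignores length. MT1F and MT1A, with under 50 counts per library, are limited by depth.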

Other observations

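Among the glucocorticoid-induced genes, values of shControl replicate 2 stood far from the other libraries in ways that no group difference shows. DUSP1, a phosphatase that shuts off MAP kinases, was at 32.9 CPM in shControl replicate 2 and at 209 to 271 CPM in the other 5 libraries. KLF9, a transcription factor, was at 4.93 CPM there and at 34.9 to 45.6 CPM elsewhere. The clock gene PER1 was at 3.83 CPM there and at 17.5 to 22.1 CPM elsewhere. FKBP5 went the other way, at 106 CPM in that library and 58.9 to 62.3 CPM in the others. In the same library MT1E and SLC30A1 were at their highest and MT1X at its lowest. HERPUD1, a gene of the endoplasmic reticulum stress response that neighbours the metallothionein cluster, was at 37.1 CPM in shControl replicate 2, 138 and 127 CPM in shControl replicates 1 and 3, and 168 to 195 CPM in shPUS1. DUSP1, KLF9, PER1, FKBP5 and HERPUD1 were chosen here after their values had been seen, and the gap between that library and the others was not tested.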
